A study of Bos taurus with 9 samples.

Results

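The subject is the 12 miRNA loci named bta-miR-2284 or bta-miR-2285 among the small RNAs of extracellular vesicles (EVs) from bovine follicular fluid. They were chosen by name and position only, from the loci that the study lists as known or homologous miRNAs, where they stand beside 237 others. They carry 8 names, which are bta-miR-2284ab, bta-miR-2284t-3p, bta-miR-2284w, bta-miR-2284x and bta-miR-2284z, and bta-miR-2285aa, bta-miR-2285q and bta-miR-2285k, the last of these at 5 places in the genome. The known and homologous loci, 12 and 237 together, are called the listed miRNA loci below. The study has a further 455 predicted miRNA loci, and 101889 loci were deposited in all.

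A miRNA is a short RNA that is cut from the stem of a hairpin precursor and loaded into an Argonaute protein, where the bases near its 5′ end, the seed, pair with sites in messenger RNAs and lower their translation or stability. The miR-2284 and miR-2285 genes form a family known from ruminants that is spread in many copies over the cattle genome, so that several of its members can yield the same or nearly the same mature RNA. Granulosa cells line the antral follicle and the fluid inside it holds EVs, membrane-bound particles that carry RNA between cells. The target genes of the single members are not part of these data, and no function is assigned to them here.

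Small RNA was sequenced from 9 pools of follicular fluid EVs from cows (Bos taurus), 3 for each class of follicle diameter and with no treatment. Small follicles measured 3 to 5 mm, medium ones 6 to 9 mm, and large ones more than 9 mm. Ovaries came from an abattoir, so each pool mixes the follicles of many animals, healthy and atretic ones alike, and p-values refer to the spread between pools. The fluid was gathered in 3 collections, each of which gave all 3 sizes, and which pools share a collection is not in the labels. The pools are named by size and by their number in the labels: small 1, 2 and 4, medium 5, 6 and 8, and large 10, 11 and 12.

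Each pool held between 8941598 and 14664460 deposited counts over all loci. The part that fell on the listed miRNA loci differed far more, from 146617 counts in large 11 to 3394554 in small 1. It was 14.1% to 26.9% of all counts in the small pools, 3.75% to 11.2% in the medium pools and 1.43% to 5.65% in the large pools. Precision for the scarce loci was therefore lowest in large follicles. Unless another scale is named, levels below are normalized counts, which are CPM values (counts scaled to a common library size) over the listed miRNA loci after TMM (trimmed mean of M-values) scaling, and a difference is a log2 fold change with its standard error (SE). A locus was called when the false discovery rate (FDR), the p-value of the edgeR quasi-likelihood test after Benjamini-Hochberg adjustment over the listed loci, was under 0.05.

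The 12 loci lie on 11 chromosomes of the UMD3.1 assembly, 6 on each strand, and are 21 to 24 bases long. bta-miR-2284x lies at chr1:3607800-3607822 on the minus strand and bta-miR-2284ab at chr6:103797778-103797799 on the plus strand. bta-miR-2284z lies at chr5:43233821-43233843 and bta-miR-2284w at chrX:2676193-2676213, both on the plus strand. bta-miR-2284t-3p, named for the 3′ arm of its hairpin, lies at chr15:39162248-39162270 on the minus strand. bta-miR-2285q lies at chr20:13408721-13408743 on the minus strand and bta-miR-2285aa at chr2:5205432-5205455 on the plus strand. The 5 bta-miR-2285k loci lie on the minus strand at chr3:53564242-53564263, chr13:23904427-23904448 and chr1:80871210-80871231, and on the plus strand at chr26:29429690-29429711 and chr29:10834225-10834246. Whether they fall in exons or introns was not analysed here.

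The 12 loci are a small part of the family that is annotated in cattle. RefSeq's gene table for the newer assembly ARS-UCD2.0 lists 43 genes of the MIR2284 group and 148 of the MIR2285 group, together 191 of 1032 miRNA genes. It holds 7 genes for bta-miR-2284z, 5 for bta-miR-2285k and 1 for each of the other 6 names. Reads of a name with several genes may be shared between copies.

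To be listed, a locus needed a mean of at least 100 raw counts in at least 1 follicle size. bta-miR-2284x met this in all 3 sizes and bta-miR-2284ab in small and medium follicles. The other 10 met it in small follicles alone. A scarce locus that was more abundant in large follicles than in small ones could thus have been missed, and the counts of loci called lower in large follicles below describe these 12 loci and do not show a trend of the family.

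bta-miR-2284x was by far the most abundant member, with 55259 of the summed raw counts in the 9 pools, 83.0% of those on the 12 loci, and stood 45th among the listed loci by total count. bta-miR-2284ab had 4978 counts and stood 121st. The totals of the other 10 ran from 449 to 1226 counts, which placed them 181st to 241st, below the median total of 4413. In small follicles the normalized level per base of locus was 212.3 for bta-miR-2284x, 22.96 for bta-miR-2284ab and 5.08 for bta-miR-2285q, and it was between 2.26 and 3.75 for the others. bta-miR-2284x and bta-miR-2284ab held the first and second place in each size, and the pools of each did not overlap with those of the next locus. Of the 11 pairs of neighbours in the order, 9 overlapped in small follicles, 8 in medium follicles (where bta-miR-2285q also stood clear of the next) and 9 in large follicles, so the order of the scarcer loci was not resolved. In large follicles the third place passed to bta-miR-2285aa, at 4.15 per base, which overlapped with bta-miR-2285q at 3.28.

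**Figure D1:**
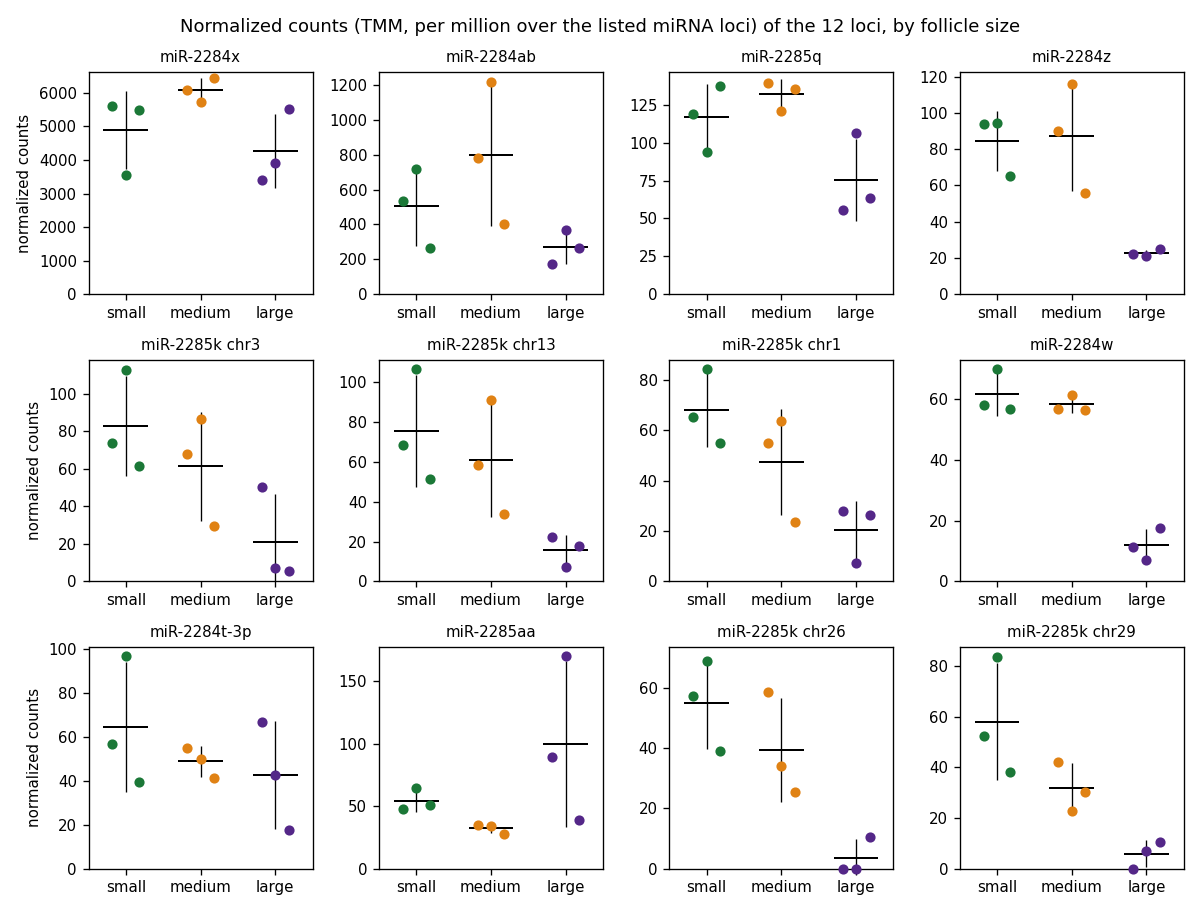
Normalized counts of the 12 loci (vertical axes from 0, one panel per locus) in the 9 pools, by follicle size (horizontal axis). Points are pools, horizontal bars are means and vertical bars are SDs (n = 3). bta-miR-2284w, bta-miR-2284z and bta-miR-2285k on chromosomes 13, 26 and 29 show 3 large pools below all small and medium pools. For bta-miR-2284x the sizes overlap or lie close.

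The main question of the design is how the RNA load of EVs differs between follicle sizes, and the comparison of large with small follicles has the widest gap in diameter. Among the 12 loci, 7 were lower in EVs of large follicles and none was higher. These were bta-miR-2284w, bta-miR-2284z and the 5 bta-miR-2285k loci, with log2 fold changes from -3.19 to -1.62. The study, with the same pools, also listed bta-miR-2284w, bta-miR-2284z and bta-miR-2285k as lower in large than in small follicles. The background was high: 24.5% of the listed loci (61 loci) were called lower in this comparison, 17.7% higher and 42.2% in either direction. The median log2 fold change was -1.74 over the 12 loci and -0.18 over all listed loci. Because 10 of the 12 were listed through small follicles alone, this gap does not show a trend of the family.

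bta-miR-2284w had the smallest FDR of the family in this comparison. Its normalized counts were 58.1, 69.8 and 56.8 in small 1, 2 and 4, 56.8, 61.5 and 56.5 in medium 5, 6 and 8, and 11.2, 7.10 and 17.7 in large 10, 11 and 12. All large pools lay below all others, and small and medium pools shared 1 range. The level was 4.52-fold lower in large than in small follicles (log2 fold change -2.18, SE 0.51, edgeR quasi-likelihood FDR = 0.00678). The large values rest on 2, 1 and 10 raw counts.

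bta-miR-2284z followed the same course. It measured 93.8, 94.5 and 65.1 normalized counts in the small pools, 89.8, 116.2 and 55.6 in the medium pools, and 22.3, 21.3 and 24.8 in the large pools. The large pools were close together and far below the rest. The difference between large and small follicles was -1.86 on the log2 scale (SE 0.48, edgeR quasi-likelihood FDR = 0.0104), or 3.63-fold lower in large follicles. The large pools held 4, 3 and 14 raw counts.

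The 5 bta-miR-2285k loci, copies that carry 1 mature name, were all called lower in large than in small follicles. The locus on chromosome 26 had 57.2, 69.0 and 38.9 normalized counts in the small pools and 0, 0 and 10.6 in the large pools (log2 fold change -3.19, SE 0.81, edgeR quasi-likelihood FDR = 0.00902). A raw count of 0 allows up to 3 counts. Before TMM scaling this is 19.5 CPM over the listed loci in large 10 and 20.5 in large 11. The level there was below the limit of detection, and whether the RNA was absent cannot be told. The log2 fold change was -2.97 on chromosome 29 (SE 0.73, edgeR quasi-likelihood FDR = 0.00805) and -2.18 on chromosome 13 (SE 0.61, FDR = 0.0141). It was -2.16 on chromosome 3 (SE 0.79, FDR = 0.0447) and -1.62 on chromosome 1 (SE 0.59, FDR = 0.0440). Small and large pools did not overlap at any of the 5, nor at 53.0% of the listed loci (29.3% with large lower). The chromosome 3 locus was the least even, with 50.2 normalized counts in large 10 against 7.10 and 5.31 in large 11 and 12. Without large 10 its difference was -3.81 (FDR = 0.00492), and without large 12 it was -1.44 and no longer called (FDR = 0.139). Its call was also lost without small 1, 2 or 4, medium 5 or large 11 (FDR = 0.0667 to 0.123). The call on chromosome 1 was lost when any pool but medium 8 was left out (FDR = 0.0510 to 0.112), and those on chromosomes 13, 26 and 29 were kept in all 9 cases, as were those of bta-miR-2284w and bta-miR-2284z. The size of some was less steady: without large 12 the value on chromosome 29 was -4.14, and chromosome 26 then had no read in the large pools, so that no fold change is given for it.

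The other 5 loci were not called between large and small follicles. bta-miR-2284x, the member that holds most of the reads, had 5607, 3547 and 5497 normalized counts in the small pools, 6096, 5723 and 6442 in the medium pools, and 3391, 3915 and 5506 in the large pools. Small and large pools covered almost the same range, with means of 4883 ± 1159 and 4270 ± 1102 (SD, n = 3). The difference of -0.19 (SE 0.32, edgeR quasi-likelihood FDR = 0.648) was smaller than the spread between pools.

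bta-miR-2284ab, the second most abundant member, had 536.0, 716.3 and 263.1 normalized counts in small pools and 172.9, 369.4 and 263.5 in large pools. These ranges overlapped (log2 fold change -0.92, SE 0.50, edgeR quasi-likelihood FDR = 0.156). bta-miR-2285q, the third in small follicles, ranged from 93.7 to 137.5 in small and from 55.8 to 106.6 in large pools (log2 fold change -0.66, FDR = 0.187). bta-miR-2284t-3p ranged from 39.7 to 97.1 in small and from 17.7 to 66.9 in large pools (log2 fold change -0.70, FDR = 0.348).

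bta-miR-2285aa was the only one of the 12 with a positive value. It had 47.4, 64.7 and 50.9 normalized counts in the small pools, 34.8, 34.2 and 27.8 in the medium pools, and 89.2, 170.5 and 38.9 in the large pools. Large 12 lay below all small pools, so large and small follicles overlapped (log2 fold change 0.80, SE 0.53, edgeR quasi-likelihood FDR = 0.230). The value was 0.17 without large 11 (FDR = 0.815) and 1.25 without large 12 (FDR = 0.0514). With scaling over more of the deposited loci this value turned negative, as the values for other scalings below show.

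**Figure D2:**
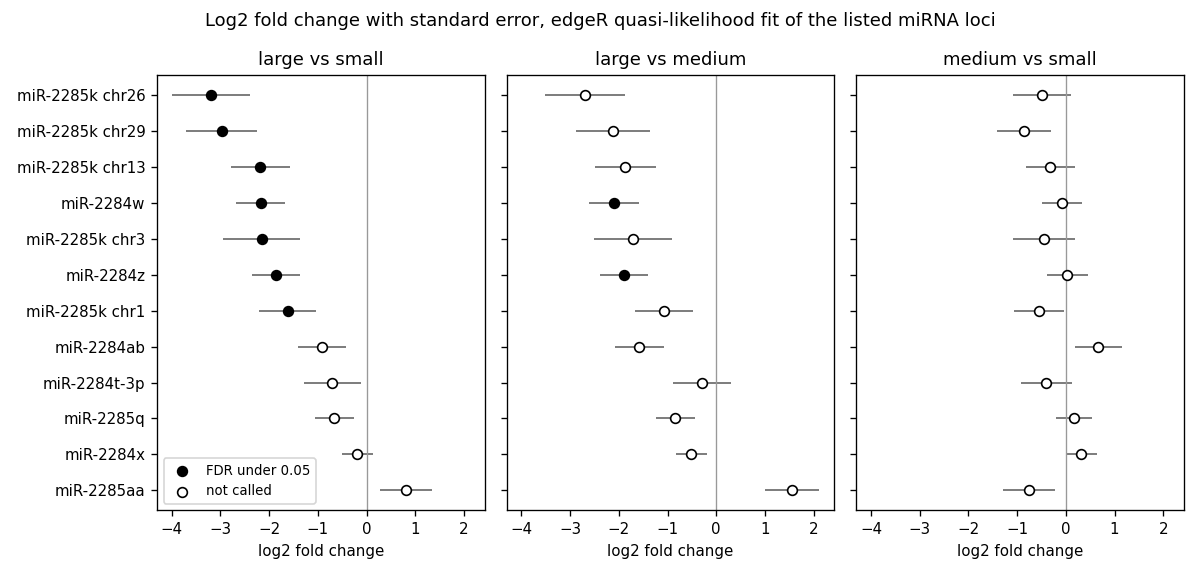
Log2 fold change (horizontal axis) of each of the 12 loci (vertical axis) in the 3 comparisons, with the SE as bars, from 1 fit of the listed miRNA loci in 9 pools. Filled points have an FDR under 0.05: 7 loci in large versus small, bta-miR-2284w and bta-miR-2284z in large versus medium, and none in medium versus small follicles.

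Measures of the whole library moved with follicle size as well. Among 6 names fixed as blood cell markers, 4 loci were found (bta-miR-451 and bta-miR-486, typical of red blood cells, and bta-miR-142-5p and bta-miR-150, typical of white blood cells). None of the 4 was at 0 in any pool. Their summed normalized counts ran from 490.4 to 2492 in small, from 1534 to 2932 in medium and from 7144 to 15499 in large pools. The large sums lay above all others, and bta-miR-486 made up most of them, with 6547, 8547 and 12641 in large 10, 11 and 12. bta-miR-451 alone of the 4 overlapped, with 172.9 in large 10 against 183.1 in small 2 and 218.7 in medium 6. The share of counts on the listed loci fell across the same pools, as given above. The part of either in the differences of the family was not tested.

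Large and medium follicles are neighbours in size, and only bta-miR-2284w and bta-miR-2284z were called between them, both lower in large follicles. In this comparison 4.82% of the listed loci were called lower, 5.62% higher and 10.4% in either direction. The difference was -2.10 for bta-miR-2284w (SE 0.52, edgeR quasi-likelihood FDR = 0.0415) and -1.89 for bta-miR-2284z (SE 0.49, FDR = 0.0437). Both calls depended on single pools. That of bta-miR-2284w was lost without small 1, medium 5, medium 6 or large 11 (FDR = 0.0566 to 0.137), and that of bta-miR-2284z without any pool but small 4 or medium 8 (FDR = 0.0528 to 0.141).

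Among the 10 loci not called, bta-miR-2284ab had 782.9, 1221 and 401.1 normalized counts in the medium pools, all above the 3 large pools (log2 fold change -1.58, SE 0.50, edgeR quasi-likelihood FDR = 0.0555, and 0.0101 to 0.211 over the alternatives). bta-miR-2285aa was the one locus of the 12 with every large pool above every medium pool (log2 fold change 1.56, SE 0.56, FDR = 0.0744). Without large 12 this was 2.00 (FDR = 0.0300) and without large 11 it was 0.93 (FDR = 0.315). bta-miR-2285k on chromosome 26 had -2.70 (SE 0.83, FDR = 0.0555). An unadjusted p-value under 0.05 was found for 7 of the 12 and for 32.1% of the listed loci. Groups did not overlap in 8 loci that were lower and 1 that was higher in large follicles, against 17.7% and 18.5% of the listed loci.

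Between medium and small follicles none of the 12 loci was called, and the edgeR quasi-likelihood test called 0.0% of the listed loci. An unadjusted p-value under 0.05 was found for 0 of the 12 and for 17.7% of the listed loci. With DESeq2 and with the edgeR exact test the family count was also 0, while DESeq2 called 19 listed loci higher and 9 lower and the exact test 8 each way. The log2 fold changes ran from -0.85 (bta-miR-2285k on chromosome 29) to 0.66 (bta-miR-2284ab). bta-miR-2284x was higher in every medium pool than in any small pool, yet the difference of 0.32 (SE 0.32, edgeR quasi-likelihood FDR = 0.622) was no larger than its error. bta-miR-2285aa was lower in every medium pool than in any small pool (log2 fold change -0.76, SE 0.52, FDR = 0.501). Such a gap was seen at 11.6% (medium higher) and 16.9% (medium lower) of the listed loci. bta-miR-2284w differed by -0.079 (SE 0.41) and bta-miR-2284z by 0.034 (SE 0.41). In 1 test for any difference among the 3 sizes, 5 of the 12 loci and 33.7% of the listed loci had an FDR under 0.05. The 5 were bta-miR-2284w, bta-miR-2284z and bta-miR-2285k on chromosomes 13, 26 and 29.

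The order of follicle sizes in the summed share of the 12 loci depended on what the reads were set against. Its mean was lower in large than in small follicles on both scales below. bta-miR-2284x made up 69.0% to 91.7% of the summed reads in single pools. Of all deposited counts, the 12 loci took 0.152%, 0.0675% and 0.172% in small 1, 2 and 4, 0.0340%, 0.0286% and 0.0814% in medium 5, 6 and 8, and 0.00720%, 0.00641% and 0.0290% in large 10, 11 and 12. Every large pool lay below every small pool. Of the counts on the listed miRNA loci, the same reads took 0.480% to 0.655% in small, 0.727% to 0.878% in medium and 0.447% to 0.514% in large pools. There the medium pools were the highest, and small and large overlapped.

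**Figure D3:**
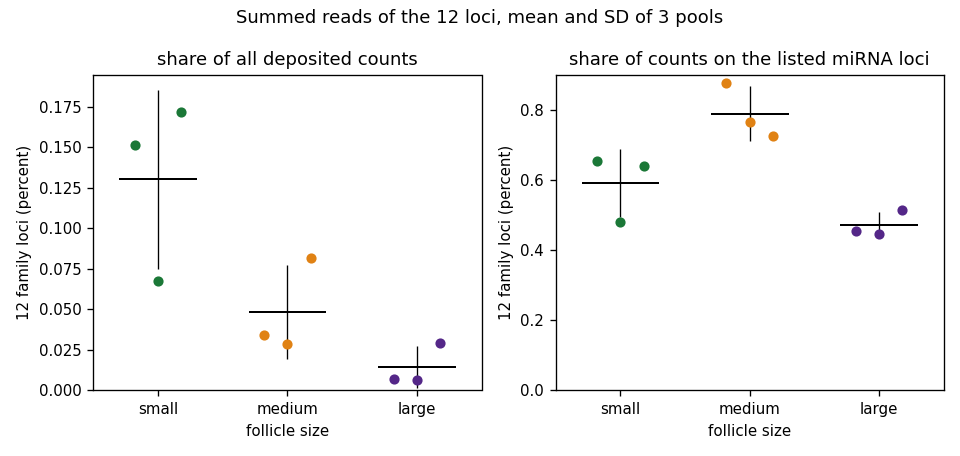
Summed reads of the 12 loci in each pool as a percent of all deposited counts (left) and of the counts on the listed miRNA loci (right), by follicle size. Points are pools, horizontal bars are means and vertical bars are SDs (n = 3). On the left the large pools (0.00641% to 0.0290%) lie below the small pools, and on the right the 2 sizes overlap.

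When libraries were scaled over all deposited loci or over all known, homologous and predicted miRNA loci, all 12 loci were called lower in large than in small follicles, with bta-miR-2284x at -3.06 by total count of all loci, -3.52 by TMM over those miRNA loci and -4.71 by TMM over all loci. These scalings also moved the median of the listed loci, to -3.06, -3.60 and -4.71, and the calls among the listed loci from 44 higher and 61 lower to 1 higher and 191 lower, 1 and 217, and 0 and 232. A new scaling shifts all loci by about the same amount, and subtracting the median removes that shift. Values relative to the median therefore changed little by construction, which is no test of the direction. Over 6 scalings, bta-miR-2284x lay between -0.068 and 0.074, bta-miR-2284w between -2.08 and -1.85, bta-miR-2284z between -1.73 and -1.60, and bta-miR-2285aa between 0.46 and 0.99. On each of these scales the 7 loci called above lay at -1.26 or lower relative to the median.

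**Figure D4:**
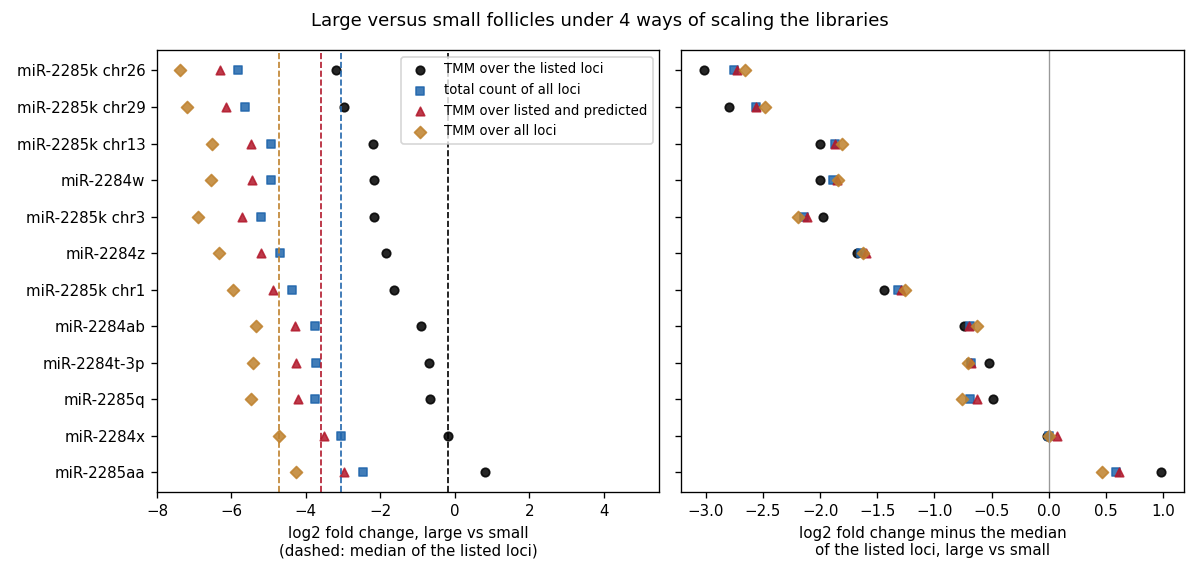
Log2 fold change of large versus small follicles for each of the 12 loci (vertical axis) under 4 scalings of the libraries (symbols). Dashed lines on the left mark the median of the listed loci under each scaling, from -0.18 to -4.71, and the right panel shows the values minus that median. This step removes a shift shared by all loci, so the symbols of a locus lie close together by construction. bta-miR-2284x lies near 0.

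A ratio within a pool needs no scaling. Per 1000 reads of bta-miR-2284x, bta-miR-2284w had 10.4, 19.7 and 10.3 reads in the small pools, 9.32, 10.7 and 8.76 in the medium pools, and 3.29, 1.81 and 3.21 in the large pools. Large pools were the lowest, and small and medium pools overlapped. bta-miR-2284z had 11.8 to 26.7 reads in small, 8.63 to 20.3 in medium and 4.50 to 6.58 in large pools. Of the 11 other loci, 6 had a lower ratio in every large pool than in any small pool and none had a higher one, against 25.0% and 23.8% of the listed loci other than bta-miR-2284x. The 6 were bta-miR-2284w, bta-miR-2284z and bta-miR-2285k on chromosomes 1, 13, 26 and 29. All 6 were listed through small follicles alone, and the bta-miR-2285k loci may share reads. This count therefore does not show a trend of the family. bta-miR-2285aa had 8.45 to 18.3 reads per 1000 in small, 4.32 to 5.97 in medium and 7.07 to 43.6 in large pools, so its large pools overlapped with the small but not with the medium ones. bta-miR-2284ab had 47.9 to 202.0 in small and 47.9 to 94.4 in large pools.

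The 5 bta-miR-2285k loci had totals of 663 (chromosome 3), 616 (chromosome 13), 570 (chromosome 1), 457 (chromosome 26) and 449 (chromosome 29). Each held between 16.3% and 24.1% of the 2755 reads of the name. Within single small and medium pools the shares spread more widely, from 7.63% (chromosome 29) to 30.5% (chromosome 13), both in medium 6 with 10 and 40 reads. Their differences between large and small follicles spanned -3.19 to -1.62, and since reads of 1 mature sequence can be placed on any copy, the 5 are not independent. Summed to 1 value per pool, bta-miR-2285k had 1030, 535 and 674 raw counts in the small, 154, 131 and 169 in the medium and 18, 4 and 40 in the large pools. The normalized sums were 297.2, 458.4 and 227.0 in small, 307.0, 295.3 and 143.3 in medium, and 109.0, 29.4 and 66.7 in large pools. Small and medium pools overlapped and the large pools lay below both.

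With loci of 1 name summed before the fit, bta-miR-2285k was lower in large than in small follicles by -2.24 (SE 0.51, edgeR quasi-likelihood FDR = 0.00622) and lower than in medium follicles by -1.84 (SE 0.51, FDR = 0.0417). Counted by name, 3 of the 8 names were called lower in large than in small follicles and the same 3 in large than in medium follicles, bta-miR-2284w, bta-miR-2284z and bta-miR-2285k. Over all listed names that fit called 21.8% lower and 20.9% higher in large than in small follicles, and 7.56% lower and 7.11% higher in large than in medium follicles. The 7 called loci therefore carry 3 miRNA names, and their mature sequences were not compared.

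Reads near a family locus were looked at because a hairpin can release an RNA from either of its arms. For 4 of the 12 loci another deposited locus lay on the same strand with a gap of 14 to 19 bases, so that both fit within 58 to 64 bases. For bta-miR-2285aa and bta-miR-2284t-3p, the hairpin that the study predicted spans the other locus as well. Whether the pairs are arms of 1 hairpin was not tested here. bta-miR-2285aa had its neighbour at chr2:5205393-5205414 (791 reads, in neither miRNA list of the study), bta-miR-2284w at chrX:2676228-2676250 (997 reads, among the predicted miRNAs), and bta-miR-2284t-3p at chr15:39162290-39162311 (166 reads, in neither list). The neighbour of bta-miR-2284ab, at chr6:103797816-103797838, held 97 reads.

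The neighbour of bta-miR-2285aa held 62.0%, 64.5% and 50.2% of the reads of the pair in the small pools, 75.6%, 86.2% and 70.8% in the medium pools, and 36.0%, 17.2% and 38.9% in the large pools. The 3 sizes did not overlap, with medium highest and large lowest. Mean shares were 58.9% ± 7.64, 77.6% ± 7.90 and 30.7% ± 11.8 (SD, n = 3), but the large pools had only 25 to 36 reads on the pair, and the exact 95% interval for large 11 ran from 5.85% to 35.8%. An exact permutation test of 3 pools against 3 cannot give a p-value below 0.1, and each of the 3 comparisons reached 0.1 (two-sided, 0.32 after adjustment over 16 tests of the 4 pairs). A two-sided exact permutation test for a trend with size gave p = 0.124 (adjusted 0.330).

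The pair of bta-miR-2284w had its highest shares in large pools. Its neighbour, the more abundant locus in most pools, held 70.2%, 59.4% and 60.1% of the reads in the small pools, 50%, 42.6% and 51.8% in the medium pools, and 66.7%, 95% and 83.3% in the large pools. Medium pools lay below both small and large pools with no overlap, while large 10, with 6 reads on the pair, lay inside the small range. Here too the exact permutation p-value was 0.1, the smallest possible, for large against medium and for medium against small, and 0.32 after adjustment, and the trend had p = 0.198. For bta-miR-2284t-3p the neighbour's share ranged from 6.56% to 37.0% in small and from 0% to 41.2% in large pools, and for bta-miR-2284ab it was at most 7.14% in any pool. These pairs overlapped in every comparison.

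**Figure D5:**
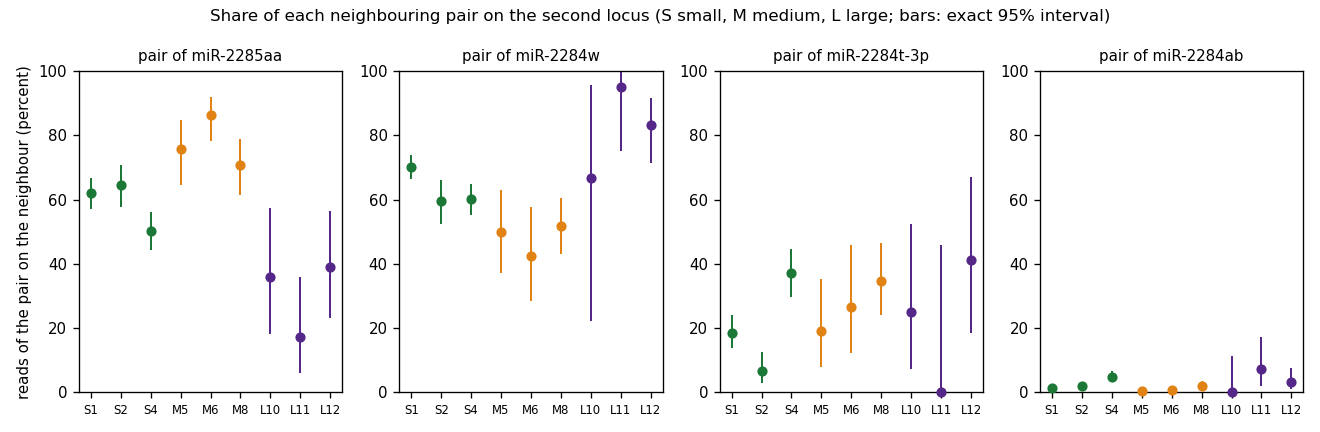
Percent of the reads of a pair that lie on the neighbouring locus (vertical axis, 0 to 100) for each pool (horizontal axis, S small, M medium, L large, with the pool's number), 1 panel per pair. Bars are exact 95% binomial intervals, which cover counting error only. The pair of bta-miR-2285aa has its highest values in medium pools (70.8% to 86.2%) and the pair of bta-miR-2284w in large pools.

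With the neighbours added to the listed loci, a fit chosen after the data were seen, none of the 4 neighbours was called in any comparison. The neighbour of bta-miR-2284w differed by -0.42 between large and small follicles (SE 0.53, edgeR quasi-likelihood FDR = 0.535), beside -2.18 for bta-miR-2284w itself. The study reported this neighbour as lower in large than in small follicles. Its published normalized counts were on another scale than those of this fit. The neighbour of bta-miR-2285aa differed by -1.21 (SE 0.58, FDR = 0.111) between large and small follicles and by -1.86 (SE 0.58, FDR = 0.0546) between large and medium follicles, where bta-miR-2285aa had 1.56. A second fit took the 85601 deposited loci with enough counts, on their own scaling. It called all 4 neighbours and the 12 family loci lower in large than in small follicles. The neighbours differed by -5.80 to -4.70, that of bta-miR-2284w by -5.02 (edgeR quasi-likelihood FDR = 0.0141). There 5.87% of the loci were called and 5.63% were called lower. Between medium and small follicles this fit called 5 of the 12 loci lower (bta-miR-2284t-3p, bta-miR-2285aa and bta-miR-2285k on chromosomes 1, 3 and 13) beside 1.46% of all loci (1.45% lower), and between large and medium follicles 0.0%.

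The levels of some other miRNA loci ran close to those of the family over the 9 pools. These likenesses are descriptions, as the pools share their libraries and sizes. The closest to bta-miR-2284x were bta-miR-22-5p (Pearson's r = 0.83 of log2 normalized counts + 1), chi-miR-34b-3p (r = 0.77), named after the goat, and bta-miR-331-5p (r = 0.77). bta-miR-2284ab was closest to bta-miR-152 (r = 0.93), bta-miR-873 (r = 0.86) and bta-let-7g (r = 0.85). The summed bta-miR-2285k was closest to bta-miR-29c (r = 0.95), chi-miR-708-3p (r = 0.95) and bta-miR-106b (r = 0.93). Within the family, the bta-miR-2285k sum had r = 0.92 with both bta-miR-2284w and bta-miR-2284z, 0.26 with bta-miR-2284x and -0.58 with bta-miR-2285aa.

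As a reference, 20 other loci of the list have bovine miRNA names with a number of 4 digits, as the family has. Of these, 5 were called higher and 4 lower in large than in small follicles, beside 17.7% and 24.5% of the listed loci. Their median log2 fold change was 0.20. In which sizes the 20 met the count minimum was not examined, so they may have been selected otherwise than the family. Between large and medium follicles 1 was called lower, beside 4.82% of the listed loci, and between medium and small follicles none was. The 2 loci of bta-miR-2904 are among the 5.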

How the data were processed

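The authors removed 3′ adapters, mapped reads with bwa 0.7.5a (version and build UMD3.1 per the submitters' processing notes), joined overlapping reads of all pools into loci and, for the core stretch of every locus, deposited the raw count per pool, not normalized. How reads with several matches were placed is not given in the sources used here, and it bears on bta-miR-2285k and bta-miR-2284z. Loci were named from the study's own list, which kept loci with a mean of at least 100 counts in 1 size.

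Here the counts as deposited were used. The listed loci were scaled by TMM and fitted with glmQLFit and glmQLFTest (edgeR 4.0.16, R 4.3.3) in 1 model of 3 sizes, with no covariate, and Benjamini-Hochberg adjustment per comparison. The SE was derived from the fold change and the F statistic. Shares of pairs were tested by exact permutation. DESeq2 1.42.0 and other alternatives appear in the closing section. Scripts were tested on simulated counts. Intervals and floors cover counting error only.

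All 12 loci are named, as are loci within 100 bases of one with at least 100 reads, and the 3 listed loci most correlated with bta-miR-2284x, bta-miR-2284ab and the bta-miR-2285k sum. The neighbour of bta-miR-2284ab (97 reads) lies below that minimum and was named after its values were seen. The members and lists were chosen with earlier results of these data known.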

Additional observations from a re-analysis of the deposited data

How the results depend on the processing

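Each collection gave fluid of all 3 sizes, but the size groups share no replicate numbers and the labels do not name the collection. No paired analysis was therefore possible, and the tests leave the collection out. The number of the 12 loci called between large and small follicles (7) was 12 with TMM over the known, homologous and predicted loci and with either scaling over all deposited loci (where 87.1%, 76.7% and 93.2% of the listed loci were lower), 6 with DESeq2's size factors and with total counts of the listed loci, 5 with a fit of these 2 sizes alone, 3 with loci of 1 name summed (of 8 names) and 4 with counts thinned to the lowest pool total of the listed loci, an alternative chosen after the data were seen. It ranged from 5 to 7 when 1 pool was left out. bta-miR-2284w and bta-miR-2285k on chromosomes 13, 26 and 29 stayed called in every alternative that gave them a value. bta-miR-2284z stayed called in all but the thinned counts (FDR = 0.0697). bta-miR-2285k on chromosome 1 lost its call without any pool but medium 8 (FDR up to 0.112), in the fit of these 2 sizes (0.0602) and after thinning (0.172). The one on chromosome 3 lost it without small 1, 2 or 4, medium 5, or large 11 or 12 (FDR up to 0.139), with DESeq2's size factors (0.0587), total counts of the listed loci (0.0718), these 2 sizes (0.0795) and thinning (0.152). Between large and medium follicles the count (2) was 7 with the edgeR exact test (11.2% of the listed loci lower, 9.64% higher), DESeq2 (12.9% and 12.5%), TMM over the known, homologous and predicted loci (17.3% and 0.0%) and an FDR under 0.1 (13.3% and 12.9%), 4 with DESeq2's size factors, with total counts of the listed loci and after thinning, and 0 with either scaling over all deposited loci and with a fit of these 2 sizes alone. It ranged from 0 to 3 without single pools and was 0 without small 1, medium 5, medium 6 or large 11 and 1 without small 2. Between medium and small follicles the count (0) was 7 with TMM over the known, homologous and predicted loci, 3 by the total of all loci and 6 with TMM over all loci, where 40.6%, 23.7% and 43.8% of the listed loci were lower. The cause of these shifts was not tested. Filtering by filterByExpr changed no count.

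Some log2 fold changes that were not called took the other sign. With TMM over the known, homologous and predicted loci, the total of all loci and TMM over all loci, in this order, bta-miR-2285aa had -2.98, -2.47 and -4.25 for large versus small and -0.32, -0.019 and -0.71 for large versus medium follicles. For medium versus small follicles these scalings gave -1.53, -1.40 and -2.44 for bta-miR-2284x, -1.41, -1.17 and -2.40 for bta-miR-2284ab, -1.70, -1.55 and -2.59 for bta-miR-2285q, and -1.99, -1.80 and -2.98 for bta-miR-2284z. The medium versus small value of bta-miR-2284w became 0.031 with DESeq2 and with its size factors, 0.047 by the total of the listed loci, 0.042 with these sizes alone, 0.019 with names summed and 0.18 after thinning. Thinning also gave -0.33 for bta-miR-2285q and 0.27 for bta-miR-2285k on chromosome 26. Leaving out single pools gave ranges of log2 fold changes that crossed 0 for bta-miR-2284x between large and small follicles (-0.42 to 0.017) and bta-miR-2284t-3p between large and medium follicles (-0.88 to 0.19). Between medium and small follicles they did so for bta-miR-2284z (-0.23 to 0.29), bta-miR-2285k on chromosome 13 (-0.72 to 0.0044), bta-miR-2284w (-0.12 to 0.019) and bta-miR-2284t-3p (-0.55 to 0.0077).

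The mean share of the 12 loci in all counts was 0.130% for small, 0.0480% for medium and 0.0142% for large follicles. It was 0.591%, 0.790% and 0.472% of the listed loci and 0.261%, 0.136% and 0.0508% of loci of 18 to 30 bases. Without bta-miR-2284x it was 0.0238% for small, 0.00775% for medium and 0.00146% for large follicles. The trend of the neighbour's share, in percentage points per step of size, ranged from -3.31 to 6.19 for bta-miR-2284t-3p and from -0.57 to 1.08 for bta-miR-2284ab without single pools, and did not change sign for the other pairs. A limit of 60 bases left the pairs as they were. The large pools had 0 to 24 raw counts on each of the 9 scarcest loci, which is the depth that limits these values.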
